A study of Homo sapiens with 2 samples.

Results

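PIK3CA, MAP3K1, NF1, ARID1A, KMT2C, TBX3, BRCA1 and BRCA2 are 8 genes that are often mutated in breast tumours or inherited in mutant form by families with breast cancer. The binding of RUNX1 around them was examined by ChIPseq in MCF10A cells, a non-tumorigenic human mammary epithelial line. Peaks were counted for a gene if the summit fell in its RefSeq interval or no more than 50 kb outside it. By this rule 8 of the 13591 peaks in the list belonged to the 8 genes, and no peak was counted for more than 1 of them.

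The data came from 1 library of chromatin precipitated with anti-RUNX1 and 1 library of input DNA. The input library received no antibody, and both came from the same engineered cells. In these cells RUNX1 had been deleted, lentiviruses then supplied an inducible RUNX1, and the cells were treated with doxycycline at 1 µg/ml for 24 hours. The RUNX1 that was precipitated was therefore the induced protein and not the cells' own. The authors report that an earlier ChIPseq of endogenous RUNX1 had shown no strong binding to chromatin. Peaks do not measure RNA, so neither the expression of the 8 genes nor the markers of the cell type could be examined.

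RUNX1 and its partner CBFB form a transcription factor that binds DNA through the Runt domain of RUNX1. In mammary epithelium RUNX1 takes part in luminal differentiation, and both RUNX1 and CBFB are themselves recurrently mutated in breast tumours. The 8 genes act in other pathways. PIK3CA encodes a catalytic subunit of PI3 kinase, MAP3K1 a kinase upstream of JNK and ERK signalling, and NF1 the RAS inhibitor neurofibromin. ARID1A is a DNA-binding subunit of the SWI/SNF chromatin remodeller, KMT2C a histone methyltransferase that acts at enhancers, and TBX3 a T-box transcription factor needed for mammary development. BRCA1 and BRCA2 repair DNA breaks by homologous recombination.

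None of the 8 summits lay within 2 kb of either end of one of the 8 genes, but 2 of those counted for ARID1A lay at starts of PIGV, its neighbour, which encodes a mannosyltransferase of GPI anchor synthesis. These are shown because they are the only peaks at the 8 genes with a summit in a promoter window, that is, the 250 bases before and 50 bases after a RefSeq transcript start. Over the whole list 2.77% of peaks had such a summit. One of the PIGV peaks had its summit 7 bp after the start at 26787054 on chromosome 1. The 250 bases before that start, chr1:26786804-26787053 on the plus strand (RefSeq, GRCh38.p14), are given first, with the 31 bases under the peak in capitals. The other had its summit 13 bp before a second start at 26787549. The last 30 bases before it, chr1:26787519-26787548 on the plus strand, all lie under that peak and are in capitals throughout.
PIGV, first start: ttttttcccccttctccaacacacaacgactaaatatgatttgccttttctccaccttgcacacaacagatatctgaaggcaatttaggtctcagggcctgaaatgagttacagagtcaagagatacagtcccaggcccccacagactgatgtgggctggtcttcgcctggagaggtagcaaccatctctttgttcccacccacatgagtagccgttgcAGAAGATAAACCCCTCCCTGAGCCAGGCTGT
PIGV, second start: TGTTTTTCTTTGGCTATTCAGAGGACATCT

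Neither of the corresponding 300-base PIGV windows held the RUNX motif, searched as TGTGGT or TGCGGT on both strands. The promoter windows of the 8 genes were searched in the same way. The table of promoters matched 6 of them with 7 windows, BRCA1 having 2, and did not hold MAP3K1 or TBX3. The motif was in 0 of the 7 windows, against 19.6% of all 35116 promoter windows. These letters were not in these windows, which says nothing of the sequence under the other peaks. Nor does it cover the parts of the PIGV peaks that reach past their windows.

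Of the 8 genes, 4 had at least 1 peak and 4 had none. ARID1A had 4 peaks, NF1 2, and PIK3CA and TBX3 1 each. MAP3K1, KMT2C, BRCA1 and BRCA2 had 0. For comparison, 52.1% of all 20037 protein-coding genes had at least 1 peak by the same rule. Among the 12056 genes no shorter than the shortest and no longer than the longest of the 8, the share was 54.5%. The share of the 8 genes with a peak was thus near the background. They had a mean of 1 peak and a median of 0.5, and all protein-coding genes had a mean of 1.07 and a median of 1.

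**Figure D1:**
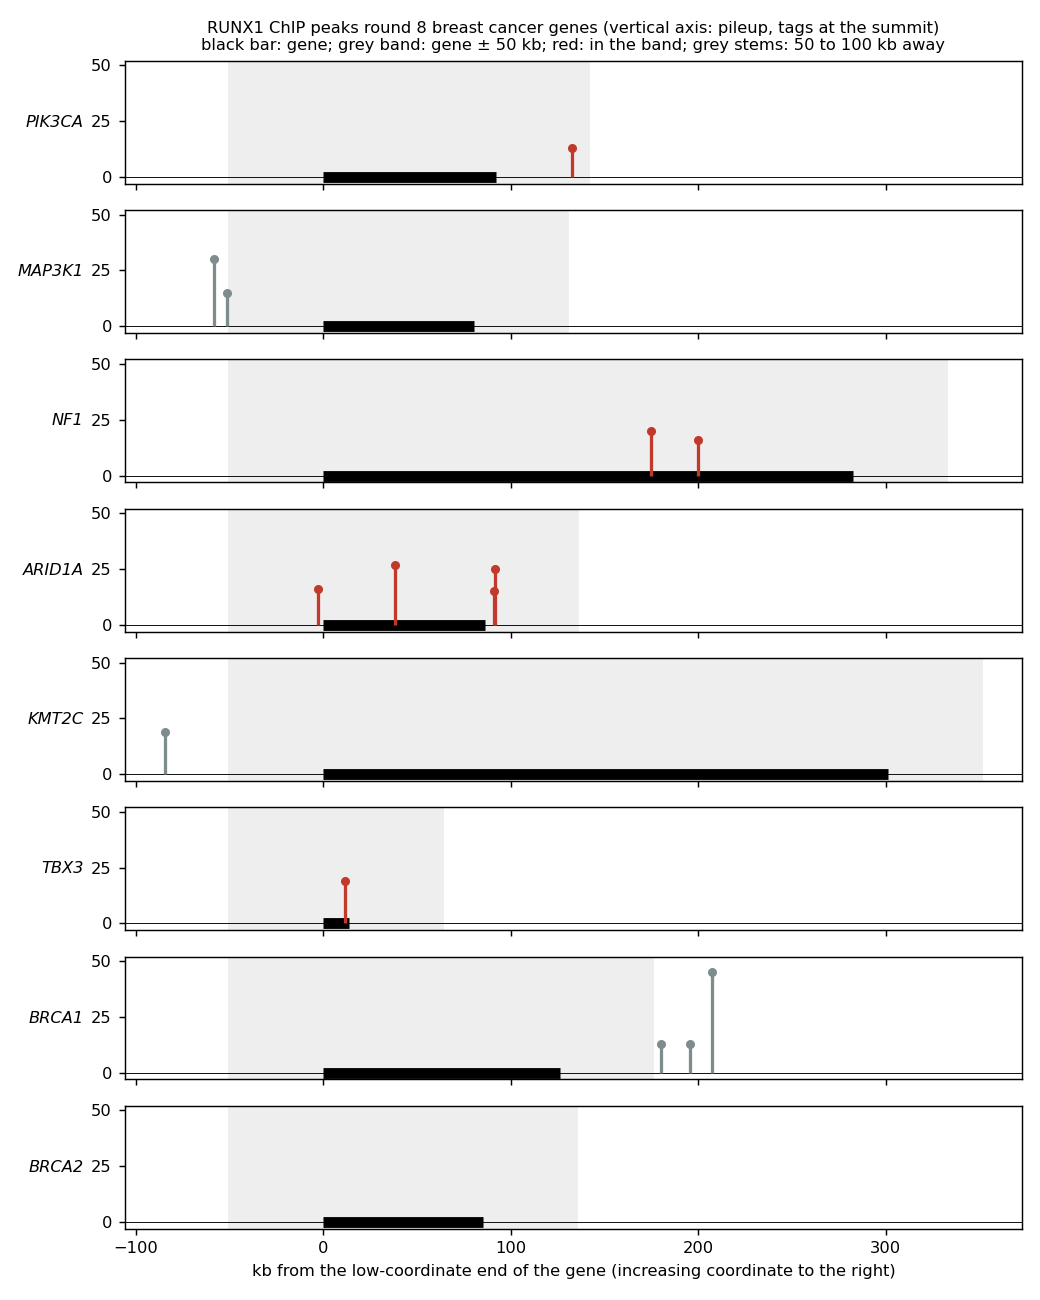
Peaks around each of the 8 genes, drawn to scale, with the distance from the low-coordinate end of the gene in kb on the horizontal axis and the pileup in tags on the vertical axis. Red stems are the 8 peaks in the gene or within 50 kb (grey band), and grey stems are 6 peaks that lay 50 to 100 kb away.

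PIK3CA had no peak inside the gene, which runs from 179148126 to 179240093 on chromosome 3 (plus strand, 92.0 kb). Its only peak, at 179281006 to 179281093, had its summit 41.0 kb downstream of the gene. This was the weakest of the 8 peaks by pileup, which is how many extended ChIP tags cover the summit. The pileup was 13 tags (exact 95% Poisson interval 6.92 to 22.2), the fold enrichment over the local background was 4.37 and the length was 88 bp. KCNMB3, a potassium channel subunit gene, was closer to this summit, at 14.0 kb. Of all peaks, 87.4% had a higher pileup.

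MAP3K1 had no peak in its interval (56815549 to 56896152 on chromosome 5) or within 50 kb. The nearest summit was 51.3 kb below the low-coordinate end of the gene, just outside the limit, in a peak of 15 tags (8.40 to 24.7). Another peak, 58.3 kb away, had a pileup of 30 tags (20.2 to 42.8), a fold enrichment of 8.25 and a length of 183 bp. MAP3K1 was the protein-coding gene nearest to both, the next being SETD9 at 145 kb and 152 kb. The peak of 30 tags was higher than any of the 8 peaks inside the limit. The PIK3CA peak, at 41.0 kb, was the farthest inside it.

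NF1, the second longest of the 8 genes (31094977 to 31377675 on chromosome 17, plus strand, 283 kb), had 2 peaks, and both lay inside it. The first, at 31269718 to 31269846, had its summit 175 kb into the gene, 129 bp of length and a pileup of 20 tags (12.2 to 30.9). Its fold enrichment was 4.49. The local background that MACS had used for it was 1.67 times the genome-wide value of 2.20 tags, one of 2 such values above 1.5 among the 8 peaks. Of all peaks 22.1% had a value above 1.5, a share near that of the 8. The second, at 31294965 to 31295107, was 25.3 kb farther on, with a pileup of 16 tags (9.15 to 26.0), a fold enrichment of 5.03 and a length of 143 bp. This second summit lay also inside OMG, a myelin glycoprotein gene nested in NF1 on the opposite strand, 2200 bp after its start. The counting intervals of the 2 pileups overlapped. Neither was near the start of NF1. The annotation lists 12 NF1 pseudogenes, none of which had a summit inside. How tags that match several copies were placed is not given in the sources used here.

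ARID1A (26696015 to 26782104 on chromosome 1, plus strand, 86.1 kb) had the most peaks of the 8 genes. At least 4 peaks were found for 6.67% of all protein-coding genes, a share not matched for gene length. The count of ARID1A depended on the setting. It was 3 with peaks within 1 kb merged, 2 with a fold enrichment of at least 5 and 1 with the nearest gene only. Of the 4 peaks only 1 lay in the gene. It was the highest of the 8 peaks, at 26734096 to 26734275, with a summit 38.2 kb after the gene start. Its pileup was 27 tags (17.8 to 39.3), its fold enrichment 7.45, its −log10 q 13.9 and its length 180 bp. A higher pileup was seen in 12.8% of all peaks.

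The other 3 summits counted for ARID1A each lay in the interval of a neighbouring gene. One was 2896 bp upstream of the ARID1A start, in a peak of 82 bp at 26693085 to 26693166 with 16 tags (9.15 to 26.0) and a fold enrichment of 5.13. Among the 6 genes with a promoter window this was the summit nearest to a start of its gene. The TBX3 summit lay nearer to an end of its gene, at 2411 bp, but TBX3 had no such window and was not ranked. The summit upstream of ARID1A also lay inside 2 loci named only by number, protein-coding LOC124900417 and non-coding LOC101928728. It was 1012 bp from the start of the latter. The remaining pair, at the PIGV starts shown above, lay 4957 and 5432 bp downstream of ARID1A. The nearer had 15 tags (8.40 to 24.7), a fold enrichment of 4.26 and a length of 111 bp. The farther, at 26787303 to 26787601, had 25 tags (16.2 to 36.9) and a length of 299 bp, the longest of the 8 peaks, but a fold enrichment of 4.65. Its local background was 2.09 times the genome-wide value, the highest among the 8, and the part of the background in the pileup was not tested. The summits of this pair were 475 bp apart.

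KMT2C, the longest of the 8 genes (152134925 to 152436003 on chromosome 7, minus strand, 301 kb), had no peak in a window of 401 kb. Only 3.83% of protein-coding genes are longer. The nearest summit was 84.1 kb beyond its downstream end, inside GALNT11, in a peak of 19 tags (11.4 to 29.7) with a fold enrichment of 6.23. The annotation lists 4 KMT2C pseudogenes, with 0 peaks inside or within 50 kb.

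TBX3 is the shortest of the 8 genes, with an interval of 13.9 kb (114670255 to 114684175 on chromosome 12), and had 1 peak inside. The peak, at 114681711 to 114681817, was 107 bp long with a pileup of 19 tags (11.4 to 29.7), a fold enrichment of 5.32 and a −log10 q of 6.89. The summit was 2411 bp from the high-coordinate end of TBX3 and 528 bp before the start of TBX3-AS1, a non-coding RNA gene on the plus strand. No other protein-coding gene lay within 50 kb of TBX3, and the nearest one to the summit was TBX5, another T-box factor gene, at 273 kb. Of all peaks, 39.9% had a higher pileup.

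Neither of the repair genes had a peak. BRCA1 (43044295 to 43170327 on chromosome 17, minus strand) had its nearest summit 54.1 kb upstream, inside CCDC200, with 13 tags (6.92 to 22.2). Besides BRCA1 itself its window held 7 protein-coding genes, the most of any of the 8, and no peak. BRCA2 (32315077 to 32400268 on chromosome 13, plus strand) was the farthest of the 8 from any peak, with 293 kb to the nearest summit. A nearer summit was found for 89.4% of protein-coding genes. The lowest pileup anywhere in the list was 10 tags, and a site below the caller's limit at these genes would not be listed.

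**Figure D2:**
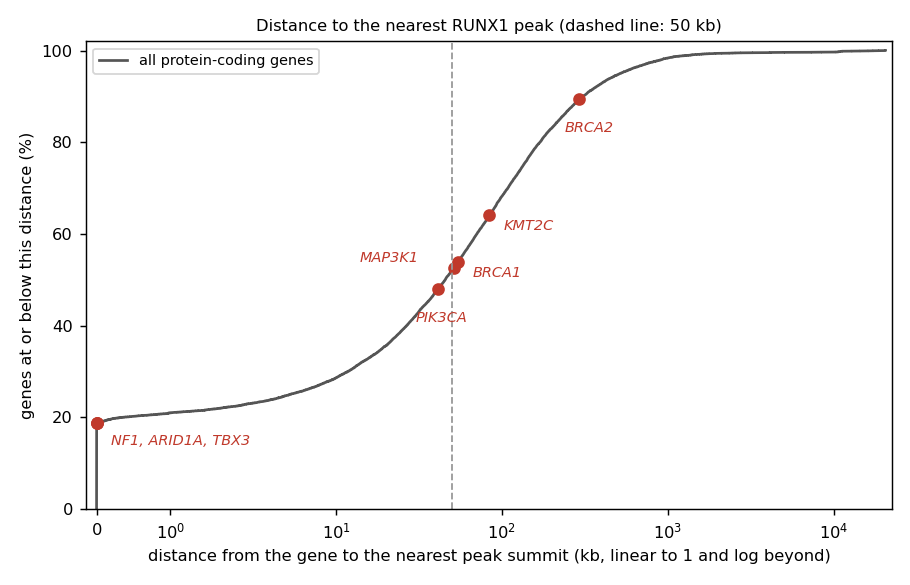
Distance from a gene to the nearest peak summit in kb (horizontal axis, linear to 1 kb and logarithmic beyond) against the percent of protein-coding genes at or below that distance. The 8 genes (red) lie along the whole curve, from 0 for NF1, ARID1A and TBX3 to 293 kb for BRCA2.

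The distance to the nearest summit placed 3 of the 8 genes at 0, since NF1, ARID1A and TBX3 each had a summit inside. A summit inside the gene was found for 18.7% of all protein-coding genes, a share not matched for gene length. The median protein-coding gene was 24.1 kb long, and of the 8 genes only TBX3 was shorter. PIK3CA, MAP3K1 and BRCA1 followed at 41.0, 51.3 and 54.1 kb, close to the median of 45.5 kb over all protein-coding genes. The quartiles of that distribution were 5.26 and 134 kb. The median over the 8 genes was 46.2 kb. KMT2C at 84.1 kb and BRCA2 at 293 kb were the farthest, and BRCA2 alone lay beyond the upper quartile.

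**Figure D3:**
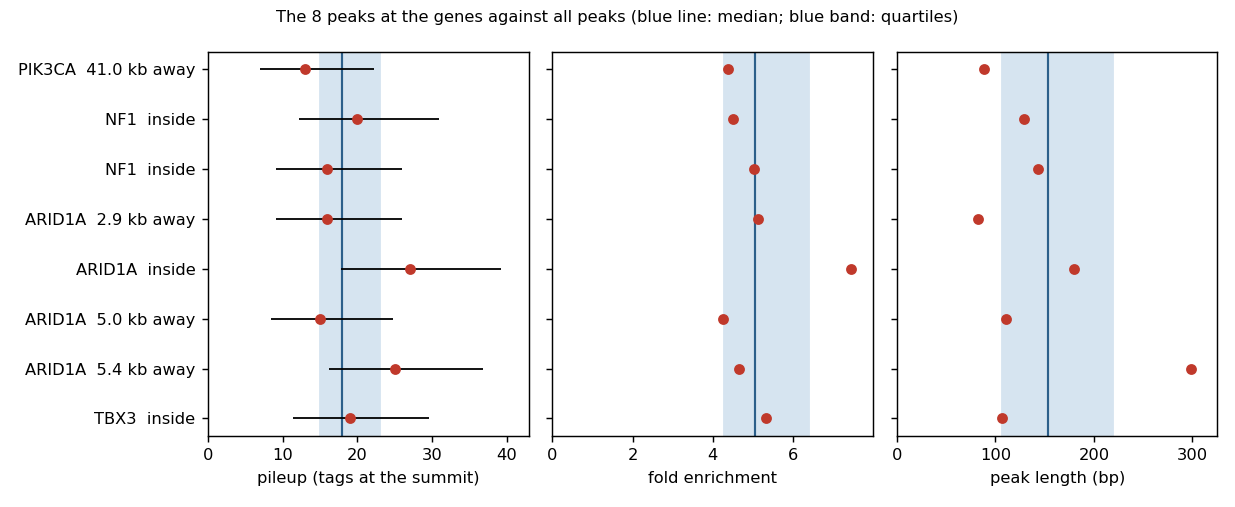
Pileup (tags, with exact 95% Poisson intervals as bars), fold enrichment and length (bp) of the 8 peaks, each labelled by its gene and its distance from it. The blue line and band are the median and quartiles of all peaks; only the peak inside ARID1A lies above both the pileup and the fold enrichment band.

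By height the 8 peaks lay around the middle of the list. Their pileups ran from 13 to 27 tags with a median of 17.5, against a median of 18 over all peaks (quartiles 15 and 23). Of the 8, 4 were above that median and 2 above the upper quartile, both of them counted for ARID1A. The fold enrichments ran from 4.26 to 7.45 with a median of 4.84, against 5.06 over all peaks (quartiles 4.28 and 6.39). All neighbouring pileups in the order from 13 to 27 tags had overlapping counting intervals, and so had the lowest and the highest.

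The lengths of the 8 peaks ran from 82 to 299 bp with a median of 120 bp, while the median of all peaks was 153 bp (quartiles 107 and 219). Of the 8, 6 were below that median, and the shortest were those upstream of ARID1A (82 bp) and downstream of PIK3CA (88 bp). MACS accepts no peak shorter than 74 bp, the estimated fragment length. The peaks of 180 and 299 bp, both at ARID1A, were also those of 27 and 25 tags.

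**Figure D4:**
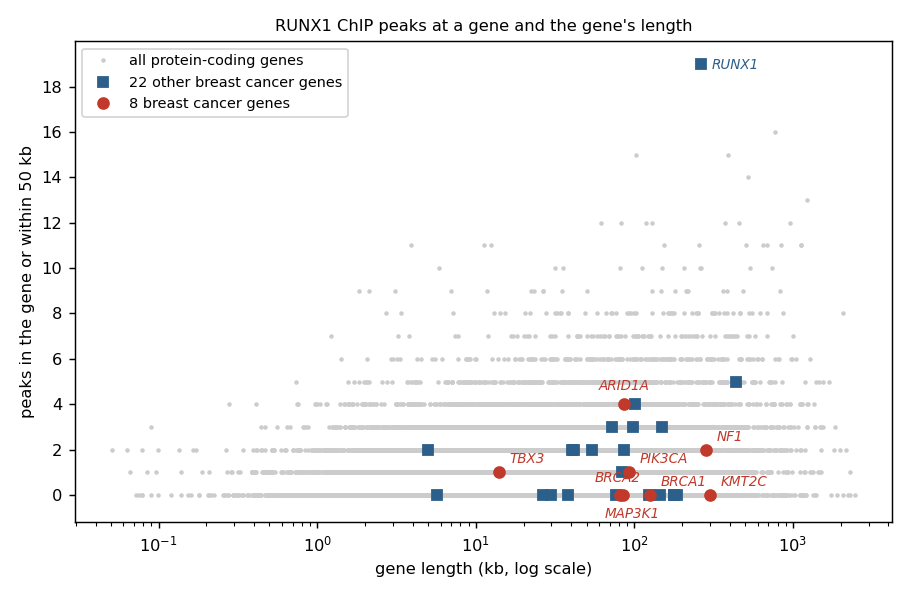
Number of peaks in a gene or within 50 kb against gene length in kb (log scale) for all protein-coding genes (grey), 22 other breast cancer genes (blue squares) and the 8 genes (red). ARID1A with 4 peaks stands highest of the 8, and KMT2C, the longest, has 0.

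Window length did not order the counts. The longest windows were those of KMT2C with 0 peaks and NF1 with 2, while the shortest, that of TBX3, had 1. Per Mb of window ARID1A had 21.5 peaks, TBX3 8.78, NF1 5.23 and PIK3CA 5.21. Over the 1.87 Mb of all 8 windows there were 4.28 peaks per Mb, and over all chromosomes 4.40. The same measure over the windows of all protein-coding genes was 6.49 peaks per Mb, where windows of neighbouring genes overlap and a peak can be counted for several of them. BRCA1 and NF1 lie on chromosome 17, which had 7.15 peaks per Mb, the highest density of any chromosome, and BRCA2 on chromosome 13 with 2.86.

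For context, 22 further genes known for mutations in breast cancer were counted by the same rule, and 12 of them had a peak, a share near the 52.1% of all protein-coding genes. The groups that follow hold few genes each, and their counts are descriptions to be read against that share. In the PI3 kinase pathway PIK3R1, the regulatory subunit gene, had 2 peaks, the higher of 37 tags (26.1 to 51.0) with a fold enrichment of 11.9, 32.5 kb from the gene. The kinase gene AKT1 had 0. Among other signalling genes ERBB2, a receptor tyrosine kinase, had 2 peaks, the higher of 29 tags (19.4 to 41.6) at 29.5 kb from the gene, and MAP2K4, a JNK pathway kinase, had 0.

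Chromatin genes with a peak were 4 of 6. ARID1B, the paralog of ARID1A, had 5 peaks, of which 1 was inside the gene, and the highest, of 37 tags (26.1 to 51.0), was 30.8 kb away. SMARCA4, the ATPase of SWI/SNF, had 4, none of them inside. SETD2 had 3, with 1 inside, and KMT2D, a relative of KMT2C, had 2, both outside. ARID2 and NCOR1 had 0.

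Among 5 genes of transcription factors, GATA3, FOXA1 and CTCF had 0 peaks. RUNX1, whose added copy the cells carried, had 19, of which 17 were inside the gene, and CBFB had 3, all inside. Tags from the added copy could not be told apart from tags of the RUNX1 gene. Their part in the RUNX1 peaks was not tested, and RUNX1 is counted among the 12 genes with a peak all the same. CDH1, the gene of E-cadherin, had 3 inside, CDKN1B 2 and RB1 0. Of the repair genes CHEK2 had 2, BARD1, which encodes the partner of BRCA1, had 1 inside, and PALB2 and ATM had 0. The highest peak exceeded 27 tags, the highest value at the 8 genes, in 7 of the 12 genes. These include RUNX1 itself, at 148 tags, the most a pileup can reach here. The rest ran from 28 to 37 tags, and their counting intervals all overlapped that of the 27 tags (17.8 to 39.3). Of all peaks 12.8% exceeded 27 tags, but the share of all genes whose highest peak did so was not computed. The count of 7 is therefore a description only.

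**Figure D5:**
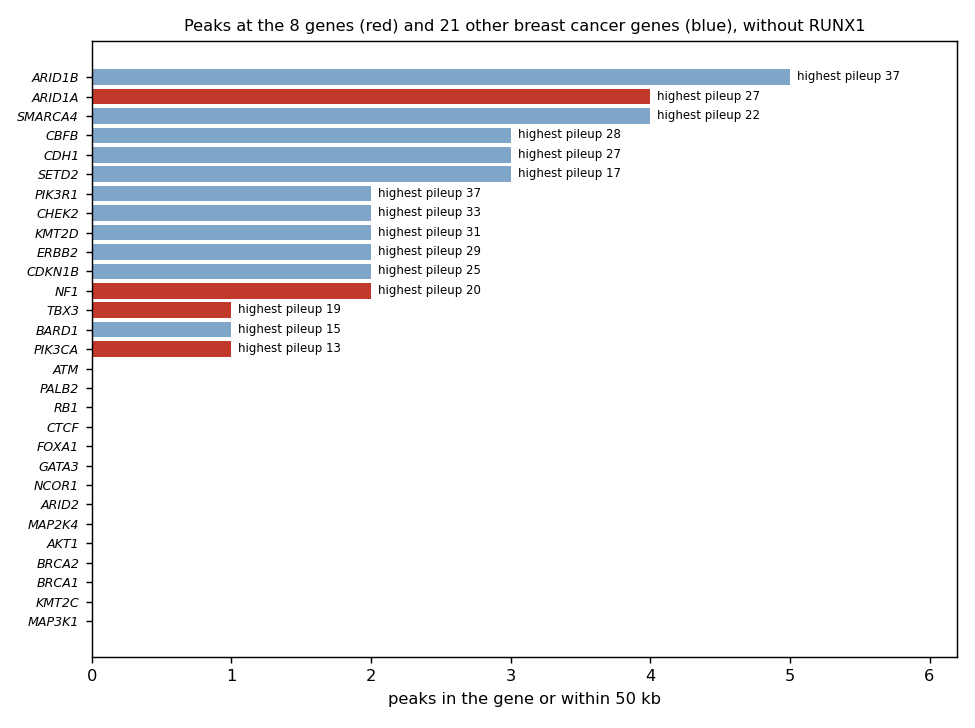
Number of peaks in the gene or within 50 kb for the 8 genes (red) and 21 of the other breast cancer genes (blue), with the pileup of the highest peak in tags beside each bar. RUNX1, with 19 peaks, is left out.

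With the gene intervals alone, 4 peaks in 3 of the 8 genes remained, and 18.7% of all protein-coding genes, of any length, had a peak. When only peaks for which one of the 8 was the nearest protein-coding gene were counted, ties included, the 4 peaks were those inside NF1, ARID1A and TBX3. Of these, the second NF1 summit was tied with OMG, which also holds it, and 3 remained without the tie. At 100 kb on either side 7 of the 8 genes had a peak, all but BRCA2, and so had 68.2% of all protein-coding genes. There was no replicate library, so all intervals cover counting error only and no difference between libraries was tested.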

How the data were processed

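RUNX1 ChIPseq was analysed from the 1 peak list that the authors deposited, made from 1 ChIP library against 1 input library. Libraries were grouped by the antibody in their labels. Per the file headers, MACS 2.1.2 was run with a q-value limit of 0.05, tags of 54 bp, an extension to 74 bp, no more than 1 tag kept per position and strand, and an effective genome size of 2.7 Gb. The submitters' processing notes name Bowtie2 and hg38. The ChIP library had 80338845 tags after filtering and the input 87410774. The deposited pileup is a signal, the extended tags over a summit, and cannot exceed 148. The authors' fold enrichment, also deposited, divides the pileup plus 1 by the local background plus 1, a ratio. The deposited p-value and q-value are −log10 values computed by MACS.

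The local background was recovered from pileup and fold enrichment, and its genome-wide value from kept tags, fragment length and genome size. Gene intervals, transcript starts and promoter sequences were taken from RefSeq (GRCh38.p14), with Python 3.11.15, pandas 2.3.3 and scipy 1.17.1. A gene without a promoter entry was given no strand. Counting was tested on simulated peaks. Named are the 8 genes with all their peaks, and 22 other breast cancer genes; further genes of that list are not reported here. The genes, lists and settings were chosen with earlier results of these data known. A sequence search under all peaks had been planned but needs a genome, which was not used here. Each single pileup has an exact 95% Poisson interval. Other settings were the gene interval alone, 5 or 100 kb on either side, a fold enrichment of 5 or more, a q limit of 0.01, any base in place of the summit, merging of peaks within 1 kb, a local background of at most 1.5 times, and nearest gene only. Their use for the 22 genes and for single genes was added after seeing the data.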

Additional observations from a re-analysis of the deposited data

How the results depend on the processing

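Over 5 results and 9 other settings, 37 of 45 values stayed within the limits set. The 5 were the number of peaks, genes with a peak, median pileup, median fold enrichment and other breast cancer genes with a peak. For a count the limit was 1.5 times. For a median it was the counting interval of a single pileup of that height, 10.3 to 27.8 tags. In fold enrichment this was 3.52 to 9.01. Both are wider than the quartiles of all peaks (15 and 23 tags, 4.28 and 6.39), so the medians could hardly leave them. The stricter q limit could drop none of the 8 peaks, whose lowest −log10 q was 3.56. The 37 of 45 therefore does not measure how stable the medians are. The number of peaks moved from 8 to 4 with gene intervals alone, to 14 with 100 kb on either side, to 4 when peaks under 5-fold enrichment were dropped and to 4 with the nearest gene only, or 3 without the NF1 summit tied with OMG. These follow from the settings, which drop or add peaks. The 8 genes with a peak went from 4 to 7 with 100 kb. The other breast cancer genes with a peak went from 12 to 6 with gene intervals alone, 6 with 5 kb and 7 with the nearest gene only. The share of all protein-coding genes with a peak likewise fell, from 52.1% to 18.7% with gene intervals alone and 24.8% with 5 kb. No such share was computed for the nearest gene only. The median pileup stayed between 16 and 19.5 tags and the median fold enrichment between 4.57 and 5.23. No paired analysis was possible because neither the ChIP nor the input has a second library. The counting interval of the lowest of the 8 pileups, 13 tags, ran from 6.92 to 22.2 tags. That of the highest, 27 tags, ran from 17.8 to 39.3 tags.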

Other observations

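Beyond the 50 kb limit lay 6 more peaks within 100 kb of the 8 genes, at MAP3K1 (2), BRCA1 (3) and KMT2C (1). Upstream of BRCA1, outside the limit, the farthest of the 3, at 43251680 to 43251766 on chromosome 17 and 81.4 kb from the gene, had 45 tags (32.8 to 60.2), more than any of the 8 peaks inside it. Its fold enrichment was only 3.82, since its local background was 5.01 times the genome-wide value. The peak between them, 69.6 kb from BRCA1, had 13 tags and a fold enrichment of 3.80.

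Of the 12 NF1 pseudogenes, 2 had peaks within 50 kb, 3 peaks in all, and the BRCA1 pseudogene had 0.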
